A study of Mus musculus with 18 samples.

Results

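A panel of 40 genes of the interferon response and of class I antigen presentation was followed through 3 lines made from C2C12, an established mouse muscle precursor line whose cells stop dividing and fuse in low serum. The genes were taken by symbol from a table of 55450 gene IDs, and each symbol matched 1 row. By role they comprised 5 transcriptional regulators, 5 genes for sensors of foreign nucleic acid and the ligase of 1 of them, and 12 antiviral effectors including the ISG15 system. The rest were 3 genes linked to ADP-ribosylation (Parp9, Parp14 and Dtx3l), 6 interferon-inducible GTPases, 7 genes of class I antigen presentation and 2 chemokines. Of these, 37 had enough counts to be tested among 17912 genes. The other 3, Usp18, Rsad2 and Iigp1, had at most 8 counts in any library and are given as counts only.

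Each line was sequenced as proliferating myoblasts in growth medium and as myotubes on day 3 after the change to differentiation medium with horse serum, in 3 replicates lettered A, B and C, so stage and medium changed together. The control was a sorted population of cells that had received the pX458 vector, which carries Cas9 and EGFP, with no guide. The other lines had a CRISPR deletion close to the promoter of Meg3, a noncoding RNA gene of the imprinted Dlk1-Dio3 cluster, and the labels name 1 a Dlk1-Dio3 overexpressor and the other a Dlk1-Dio3 knockout. Both were grown from single cells, so each genotype was 1 clone set against a population, and genotype and clone cannot be told apart. The labels do not say whether the replicates were separate cultures, so p-values measure the spread between these libraries, which may be technical.

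Meg3 had 5222 to 7763 counts in each overexpressor library and 0 in every control and knockout library, so its own RNA separated the overexpressor from the other lines but did not separate the line labelled knockout from the control. Library totals ran from 41544358 to 79140702 counts. The summed level of 6 muscle markers (Myod1, Myf5, Des, Myog, Myh3 and Ckm) was 1231 to 1398 CPM (counts relative to library size, scaled by TMM factors) in control myoblasts, 2486 to 3080 in overexpressor myoblasts and 7171 to 8719 in knockout myoblasts. In myotubes it was 8340 to 9090 in the control, 14647 to 16026 in the overexpressor and 18876 to 22777 in the knockout. Markers of leukocytes (10 genes) summed to 3.29 to 13.9 CPM over all libraries, most of it from Cd14 and Cd68. Of these 10, 6 had enough counts to be tested, among them Csf1r and Lyz2, whose counts are given below. Ptprc and Tyrobp had at most 11 and 1 counts in a library, and 5 endothelial markers together reached at most 0.669 CPM.

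Interferons are secreted proteins that a cell releases when it senses viral nucleic acid. Types I and II bind separate receptors, whose kinases activate STAT proteins. A complex that holds STAT2 and IRF9 acts at the interferon-stimulated response element, while the type II signal acts through the gamma-activated site. The induced genes restrict viruses and raise the presentation of peptides on class I molecules, for which the immunoproteasome cuts the peptides and TAP carries them into the endoplasmic reticulum. Many of these genes also keep a low activity in cells that meet no virus, and skeletal muscle fibres normally show little class I on their surface.

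Promoters of 7 members are shown as examples, and a link between their elements and the results below was not tested. The table of RefSeq promoters (GRCm38.p6, 250 bases before to 50 after a start) held 35 promoters of 30 of the 40 genes. The core of the interferon-stimulated response element was searched as GAAA followed after any 2 bases by GAAA, and the gamma-activated site as TTCNNNGAA, on both strands, and in some promoters the matches overlap each other. At least 1 such response element core stood in a promoter of 15 of the 30 genes (50%), against 3.44% of 32851 promoters in the table. At least 1 TTCNNNGAA stood in a promoter of 6 genes (20%), against 8.3%. The shares of members count genes with a match in any promoter, and those of the table count single promoters, so the units differ. These are matches of letters, not measured binding. Below are 160 bases of 7 of these promoters, from 150 before the RefSeq start to 10 from it, 5′ to 3′ in the direction of the gene, with matches of either motif in capitals.
Irf1: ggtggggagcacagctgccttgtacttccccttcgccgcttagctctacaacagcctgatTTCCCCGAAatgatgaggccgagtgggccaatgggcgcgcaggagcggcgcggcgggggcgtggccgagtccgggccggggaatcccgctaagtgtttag
Isg15: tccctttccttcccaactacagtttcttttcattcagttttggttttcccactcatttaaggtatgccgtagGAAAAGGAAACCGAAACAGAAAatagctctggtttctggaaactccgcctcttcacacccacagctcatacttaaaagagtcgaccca
Ifit1: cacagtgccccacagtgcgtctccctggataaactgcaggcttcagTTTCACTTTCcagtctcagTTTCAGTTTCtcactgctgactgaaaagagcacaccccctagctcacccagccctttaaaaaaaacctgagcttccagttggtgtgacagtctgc
Bst2: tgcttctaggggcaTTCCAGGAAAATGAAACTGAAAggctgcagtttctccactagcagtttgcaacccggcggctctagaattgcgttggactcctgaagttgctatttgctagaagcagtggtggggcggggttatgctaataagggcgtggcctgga
Gbp2: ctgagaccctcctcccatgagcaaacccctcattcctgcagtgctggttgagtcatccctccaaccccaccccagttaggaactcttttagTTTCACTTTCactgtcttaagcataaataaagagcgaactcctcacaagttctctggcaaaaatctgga
Igtp: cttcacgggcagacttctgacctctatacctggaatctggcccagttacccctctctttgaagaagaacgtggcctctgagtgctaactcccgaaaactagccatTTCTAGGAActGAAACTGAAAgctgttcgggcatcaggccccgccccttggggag
Psmb8: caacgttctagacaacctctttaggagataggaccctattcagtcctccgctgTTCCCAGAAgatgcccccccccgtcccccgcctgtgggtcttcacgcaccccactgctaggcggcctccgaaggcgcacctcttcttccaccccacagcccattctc
In GRCm38 these windows are chr11:53769864-53770023 (plus strand), chr4:156200809-156200968 (minus), chr19:34640739-34640898 (plus), chr8:71537463-71537622 (minus), chr3:142620513-142620672 (plus), chr11:58199406-58199565 (plus) and chr17:34198045-34198204 (plus). Irf1 and Psmb8 show a gamma-activated site only, from 90 and 97 bases before the start. Isg15 shows 3 overlapping response elements and Ifit1 a pair on the opposite strand. Gbp2 shows 1 response element, and Bst2 and Igtp show both kinds of motif.

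Levels can be compared between genes only per length. In control myoblasts B2m, the invariant light chain of class I molecules, stood highest at 260 CPM per kilobase of exon. The class I heavy chains H2-D1 and H2-K1 followed at 28.9 and 28.3, and then Irf1 at 14.7. Among the antiviral effectors, Isg15 stood at 2.07, Oasl2 at 0.437 and Ifit1 at 0.390 CPM per kilobase. The immunoproteasome subunits Psmb8 and Psmb9 stood at 0.0721 and 0.0652, among the lowest of the panel. The 21 interferon genes searched (type I, II and III ligands) summed to at most 3 counts in any library, and none passed the filter for testing, so no ligand RNA above that limit was detectable at this depth.

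In myoblasts 18 of the 37 tested members were lower in both clones than in the control, among them Irf1, Ifih1, Isg15, Bst2, Tap1, H2-K1 and both chemokines. The share of all genes lower in both clones was not computed, so this count has no background beside it. The members and the further gene lists were chosen with earlier results of these data known. Their shares beside those of all genes, here and below, are therefore not independent of these data. Counts were tested with edgeR's quasi-likelihood test, with Benjamini-Hochberg adjustment of p over all 17912 genes and a threshold of 0.05. Log2 fold changes are given ± SE. In overexpressor myoblasts 21 of 37 members were lower and 6 higher than in the control, where 19.7% of all genes tested were lower and 20.7% higher. In knockout myoblasts 26 were lower and 2 higher, against 26.6% and 26.4% of all genes. In the 18 fits that each left out 1 library, the lower call of Irf7 was lost in 9 and that of Samd9l in 8. Their adjusted p rose to as much as 0.18 and 0.196. The median log2 fold change was -0.77 over the members in the overexpressor and -1.13 in the knockout, against 0.02 over all genes in each. Both comparisons use the same control libraries, so calls shared by the clones are not independent. Control myoblasts had the highest mean of the 3 lines for 24 members, the overexpressor for 12 and the knockout for 1. The highest line was not counted over all genes. Between the clones, 13 members were higher in the overexpressor and 4 lower (all genes, 25.7% and 26.9%), with a median of 0.38 against -0.02. In bulk RNA, fewer cells expressing a gene and less RNA per cell cannot be told apart, and this holds for every value below. The muscle markers given above also differed between the lines at this stage, and their part in these differences was not tested.

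In myotubes the counts of each clone against the control lay nearer to the background, while those between the clones did not. Against the control 9 members, among them Irf1, Oasl2, Gbp2, Igtp and Psmb8, were higher in both clones, and 8, among them Isg15, Bst2, Tap2 and the class I chains, were lower in both. The shares of all genes called alike in both clones, within a stage or across both, were not computed. Overexpressor myotubes had 10 members higher and 14 lower than the control (all genes, 26.2% and 30.9%). Knockout myotubes had 11 higher and 9 lower (all genes, 31.0% and 37.0%), so that the share higher lay near the background and the share lower under it. The members' median log2 fold change was -0.27 in the overexpressor and 0.09 in the knockout, beside -0.04 and -0.07 over all genes. Scaling was also done in edgeR with relative log expression factors in place of TMM, called DESeq2 size factors here. With these the knockout had 13 higher and 7 lower. In the overexpressor against the knockout, 3 members were higher and 18 lower (all genes, 30.6% and 29.1%), with a median of -0.47 against 0.02; scaled to library totals the split was 6 higher and 17 lower. The knockout had the highest mean of the 3 lines for 18 members in myotubes, the control for 16 and the overexpressor for 3, again with no count over all genes. Across both stages, Isg15, Bst2, Tap2, H2-K1 and H2-D1 passed as lower in both clones and Trim25 and Igtp as higher, though Trim25 and H2-D1 each lost a call without 1 library and Bst2 lost one with DESeq2 size factors.

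**Figure D1:**
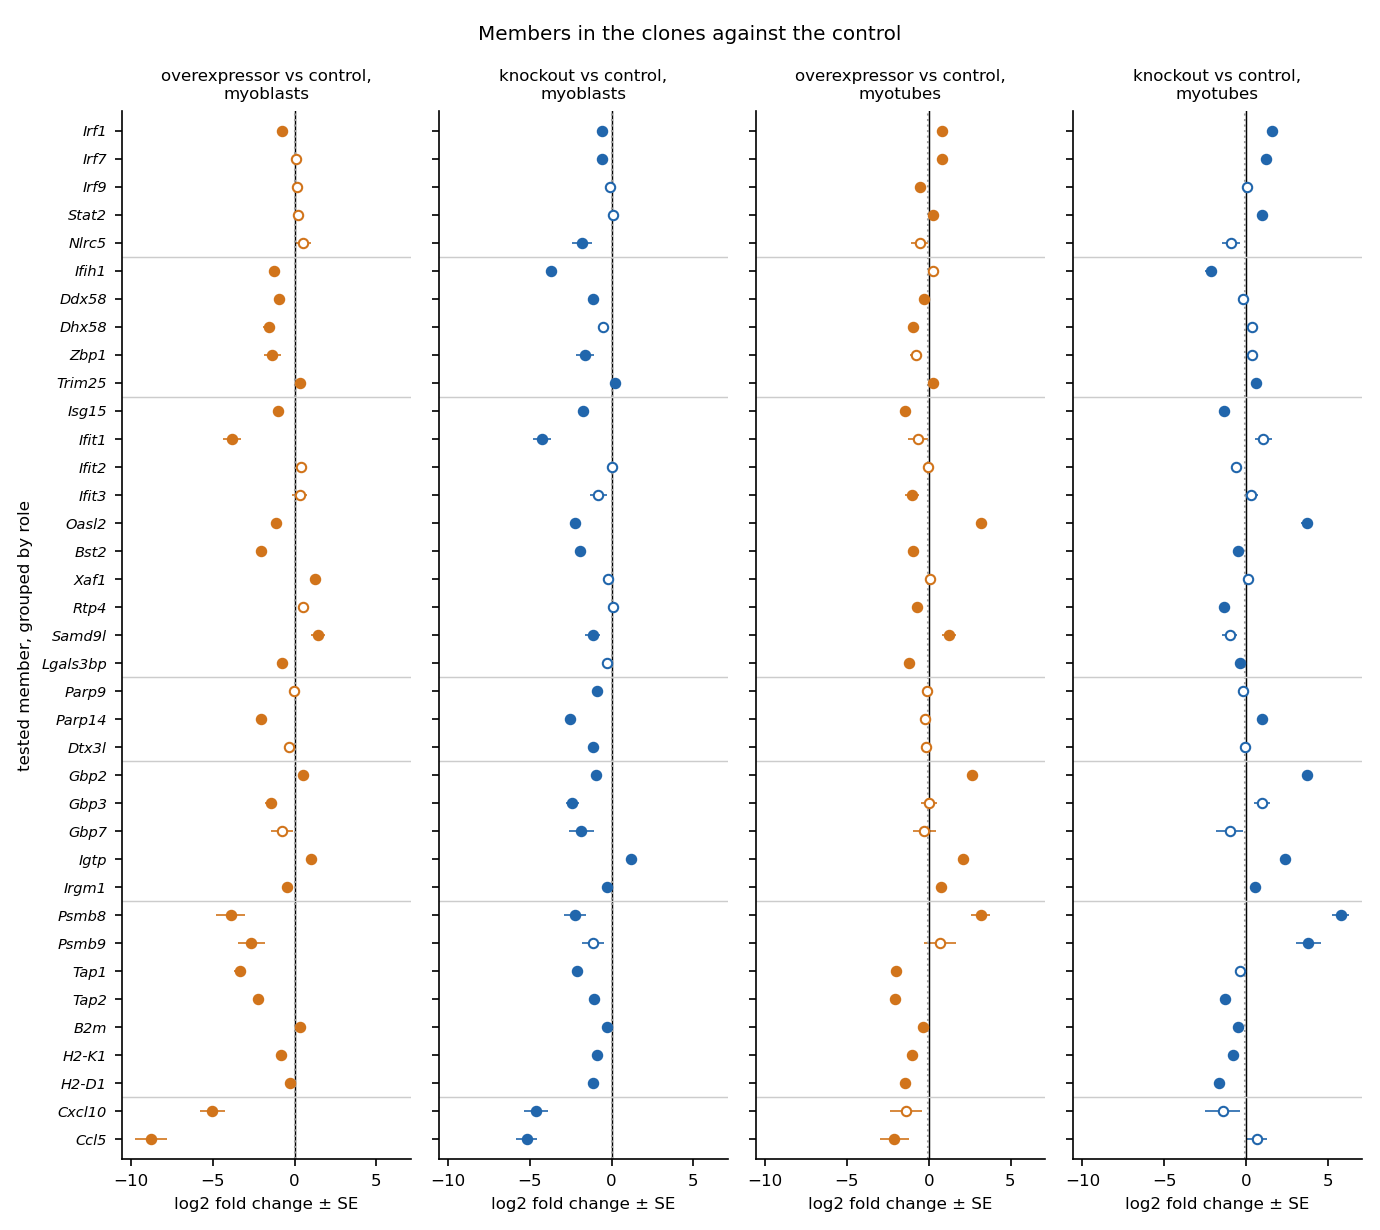
Log2 fold change (horizontal axis, ± SE) of the 37 tested members, in rows grouped by role, for each clone against the control in myoblasts and in myotubes. Filled points passed an adjusted p of 0.05, open points did not, and the dotted line is the median of all genes. In the myoblast columns most filled points lie left of 0; in the myotube columns Oasl2, Gbp2, Igtp and Psmb8 lie right of 0 in both clones. Ccl5 in overexpressor myoblasts is drawn at a fitted value with no counts behind it, for which only a lower bound holds.

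With differentiation more members fell than rose in the control, and more rose than fell in the knockout; in the overexpressor the counts lay near the background. In the control 17 members fell and 9 rose from myoblasts to myotubes (all genes, 28.8% lower and 33.9% higher), with a median log2 fold change of -0.41 against 0.07. In the overexpressor 10 fell and 10 rose (all genes, 33.0% and 29.8%), with a median of 0.20, or 0.19 with Ccl5 at its bound, against -0.02. Scaled to library totals, 8 rose and 12 fell in the overexpressor. In the knockout 21 rose and 3 fell (all genes, 29.8% and 35.6%), with a median of 0.70 against -0.08. DESeq2 called 23 higher and 1 lower there, and without knockout myoblast replicate A or B or knockout myotube replicate B 1 member fell, and without knockout myotube replicate C 0 did.

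The differences between these responses were tested directly. The responses did not start from like levels of the muscle markers. Their sum was 1231 to 1398 CPM in control and 7171 to 8719 in knockout myoblasts, beside 8340 to 9090 in control myotubes. The part of this in the differences was not tested. Compared with the control's response, the knockout's was higher for 21 members and lower for 3 (all genes, 20.2% and 29.9%), with a median difference of 0.97 on the log2 scale against -0.12; DESeq2 called 22 higher and 1 lower. The overexpressor's response was higher than the control's for 13 members and lower for 5 (all genes, 16.6% and 22.3%), with a median of 0.56 against -0.05. Between the clones, the overexpressor's response was higher for 0 members and lower for 17 by edgeR (all genes, 24.3% and 22.4%), with a median of -0.65 against 0.06. At an unadjusted p under 0.05 it was higher for 1, and DESeq2 called 0 higher. By pattern, Ifit1, Oasl2, Dtx3l, Gbp2, Psmb9 and Ccl5 fell in the control and rose in the knockout, and did not pass in the overexpressor. Irf1, Bst2, Parp14 and Psmb8 fell in the control and rose in both clones. Zbp1, Isg15, Lgals3bp, Igtp and Tap2 rose in all 3 lines, and Ifih1 fell in all 3. Single libraries carried some of these calls: leaving out 1 library raised the adjusted p to as much as 0.0768 for Dtx3l and 0.0572 for Zbp1 in the control, to 0.11 for Parp14, 0.114 for Isg15 and 0.303 for Lgals3bp in the overexpressor, and to 0.124 for Ifih1 and 0.0978 for Ccl5 in the knockout.

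**Figure D2:**
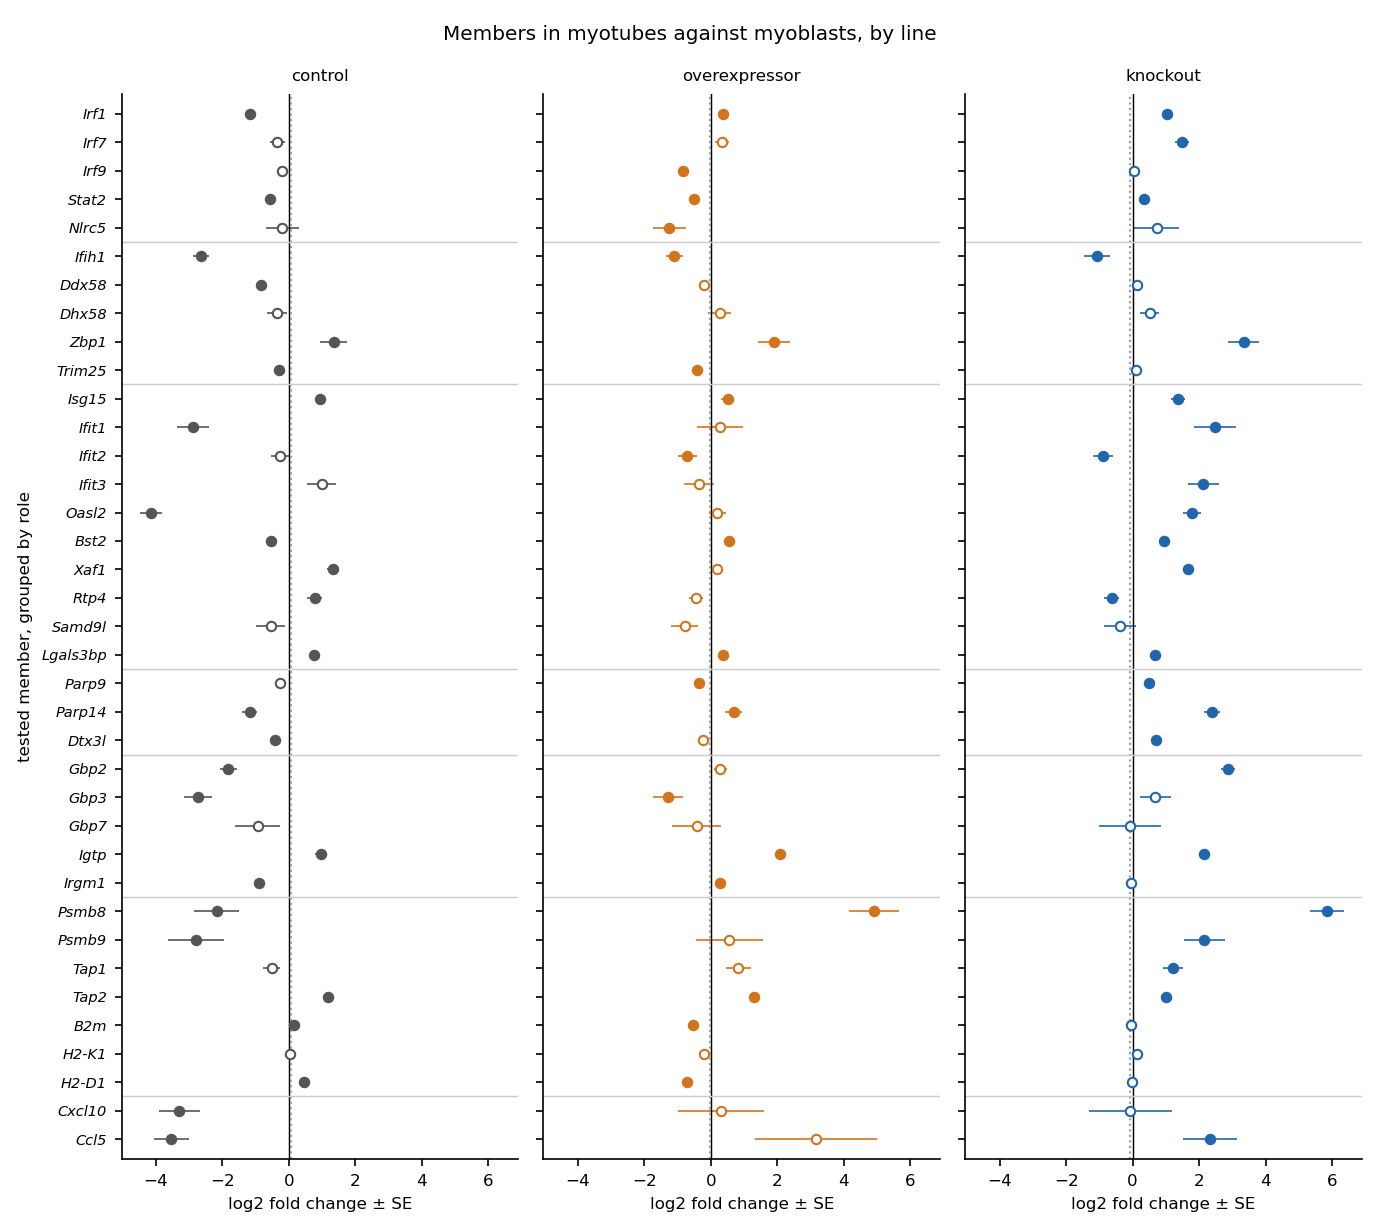
Log2 fold change from myoblasts to myotubes (horizontal axis, ± SE) of the 37 tested members in each line, in rows grouped by role. Filled points passed an adjusted p of 0.05, and the dotted line is the median of all genes. In the control 17 filled points lie left of 0, in the knockout 3 do.

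Of the transcriptional regulators, Irf1, the factor that induces class I, immunoproteasome and GTPase genes, showed the clearest turn. Its level was 50.7, 65.3 and 59.7 CPM in control myoblasts, 39.5, 29.6 and 35.7 in overexpressor myoblasts and 37.1, 41.3 and 38.3 in knockout myoblasts. Myotubes had 27.4, 25.7 and 25.7 CPM in the control, 47.5, 45.9 and 42.1 in overexpressor cells and 74.1, 80.7 and 81.7 in the knockout. The control libraries were thus highest at the myoblast stage and lowest at the myotube stage, without overlap with either clone, while the clones overlapped each other in myoblasts. The log2 fold change in myoblasts was -0.74 ± 0.10 (adjusted p = 7.54e-06) in the overexpressor and -0.59 ± 0.10 (adjusted p = 6.35e-05) in the knockout. The myotube values were 0.78 ± 0.10 (adjusted p = 2.31e-06) and 1.58 ± 0.10 (adjusted p = 2.00e-10). Irf1 fell with differentiation in the control (-1.16 ± 0.10, adjusted p = 1.19e-08) and rose in the overexpressor (0.37 ± 0.10, adjusted p = 0.00336) and the knockout (1.02 ± 0.10, adjusted p = 8.20e-08). Its mean levels ran in the order knockout myotubes, control myoblasts, overexpressor myotubes, knockout myoblasts, overexpressor myoblasts and control myotubes, and of these neighbours the knockout and overexpressor myoblasts alone overlapped.

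Stat2, which works with IRF9 in the type I complex, did not pass the test in either clone's myoblasts, at 30.6 ± 2.81 (mean ± SD, n = 3) CPM in the control, 35.0 ± 3.91 in overexpressor cells and 32.1 ± 1.72 in the knockout. Its myotube level was 20.5, 21.9 and 19.9 CPM in the control, 25.1, 25.1 and 24.3 in the overexpressor and from 39.5 to 42.2 in the knockout. All 3 knockout libraries lay above all others of that stage (0.96 ± 0.09, adjusted p = 1.51e-08 on the log2 scale). In the overexpressor the difference was 0.26 ± 0.08 (adjusted p = 0.0142), and without control myotube replicate C its adjusted p was 0.0555.

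Irf7, the factor that amplifies type I interferon, was higher in the myotubes of both clones, at 0.716 ± 0.0568 CPM in the control, 1.24 ± 0.183 in overexpressor cells (0.79 ± 0.22, adjusted p = 0.00446) and 1.72 ± 0.260 in the knockout (1.26 ± 0.22, adjusted p = 5.67e-05). Irf9, the DNA-binding part of the type I complex, was lower in overexpressor myotubes, at 4.96 ± 0.529 CPM beside 7.13 ± 0.310 in the control (-0.52 ± 0.09, adjusted p = 6.94e-05). It had no passing change against the control in the other comparisons of a clone. Nlrc5, the transactivator of class I genes, had only 2 to 19 counts in any library. It was lower in knockout than in control myoblasts (-1.80 ± 0.61, adjusted p = 0.0192), with 5, 2 and 2 counts against 10, 11 and 10. That call was lost without knockout myoblast replicate B or C, and without replicate A the value was -2.45. The overexpressor lay above the knockout in myoblasts (2.31 ± 0.59, adjusted p = 0.00276, or 2.96 without that replicate A).

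Of the 5 genes of sensing, 4 sensors were lower and the ligase gene Trim25 higher in overexpressor myoblasts (all genes, 19.7% and 20.7%). In knockout myoblasts 3 sensors were lower and Trim25 higher (26.6% and 26.4%). Ifih1, which encodes the double-stranded RNA sensor MDA5, had 3.50, 3.08 and 2.98 CPM in control myoblasts, 1.56, 1.23 and 1.16 in the overexpressor and 0.280, 0.310 and 0.142 in the knockout. The 3 lines did not overlap, and their order was control, overexpressor, knockout. The log2 fold change against the control was -1.27 ± 0.23 (adjusted p = 1.71e-04) in the overexpressor and -3.71 ± 0.28 (adjusted p = 2.54e-09) in the knockout. In myotubes the control had 0.436, 0.572 and 0.523 CPM, the overexpressor 0.460, 0.625 and 0.764 and the knockout 0.171, 0.0670 and 0.105. Only the knockout differed from the control there (-2.13 ± 0.36, adjusted p = 4.21e-05), while the control and overexpressor libraries overlapped. Set against the knockout, the overexpressor was higher at both stages (2.43 ± 0.29, adjusted p = 1.04e-06 in myoblasts and 2.41 ± 0.34, adjusted p = 1.01e-05 in myotubes).

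Ddx58, which encodes the sensor RIG-I, fell from 28.1 ± 1.38 CPM in control myoblasts to 15.7 ± 1.53 in control myotubes (-0.84 ± 0.10, adjusted p = 9.22e-07). It was lower in the myoblasts of both clones, at 14.5 ± 1.02 in the overexpressor (-0.96 ± 0.10, adjusted p = 4.74e-07) and 12.6 ± 0.665 in the knockout (-1.16 ± 0.10, adjusted p = 2.59e-08), and did not pass between myoblasts and myotubes in either. In myotubes the log2 fold change of the overexpressor was -0.31 ± 0.10 (adjusted p = 0.0155), a call lost without control replicate A or overexpressor replicate A or C, with DESeq2 size factors (adjusted p = 0.128) and under scaling to library totals (0.199). Dhx58, the related protein LGP2, was lower than the control in overexpressor myoblasts (-1.59 ± 0.33, adjusted p = 7.63e-04) and than in knockout myoblasts (-1.08 ± 0.34, adjusted p = 0.0123, lost without overexpressor replicate B or knockout replicate C). Trim25, the ligase that ubiquitinates RIG-I, was higher in the myotubes of the knockout (0.62 ± 0.08, adjusted p = 1.40e-06) and of the overexpressor (0.24 ± 0.08, adjusted p = 0.0135, lost without control replicate B or C or overexpressor replicate B, with adjusted p up to 0.0729). In knockout myoblasts its difference of 0.22 was lost without control replicate A or C or knockout replicate B or C. Zbp1, a sensor that can start necroptosis, rose with differentiation by 1.35 ± 0.40 (adjusted p = 0.00622) in the control, 1.91 ± 0.48 (adjusted p = 0.00212) in overexpressor cells and 3.34 ± 0.46 (adjusted p = 5.63e-06) in the knockout. The control call was lost without control myotube replicate A, and without overexpressor myoblast replicate A the overexpressor value was 3.03. The lower Zbp1 call in overexpressor myoblasts was lost in 12 of the 18 fits that each left out 1 library, with adjusted p up to 0.177. Its call in knockout myoblasts was lost in 1 of them (0.0667).

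The antiviral effectors did not move as 1 block. In myoblasts 5 of the 10 tested were lower and 2 higher in the overexpressor (all genes, 19.7% lower and 20.7% higher), and 5 lower in the knockout (26.6% lower). In myotubes 5 were lower and 2 higher in the overexpressor (30.9% and 26.2%), and 4 lower and 1 higher in the knockout (37.0% and 31.0%).

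Isg15, a ubiquitin-like modifier, was lower in both clones at both stages. Its libraries had 1.65, 1.71 and 1.34 CPM in control myoblasts, 0.679, 0.820 and 0.832 in the overexpressor and 0.409, 0.492 and 0.480 in the knockout. Differentiation raised it in each line, to 3.14, 3.52 and 2.47 in control, 1.29, 1.01 and 1.01 in overexpressor and 1.18, 1.27 and 1.15 in knockout myotubes. At each stage every control library lay above every clone library. The log2 fold changes were -1.02 ± 0.19 (adjusted p = 2.59e-04) in overexpressor and -1.76 ± 0.20 (adjusted p = 5.92e-07) in knockout myoblasts, and -1.46 ± 0.17 (adjusted p = 6.97e-07) and -1.34 ± 0.17 (adjusted p = 1.97e-06) in the myotubes. The rise in the overexpressor (0.51 ± 0.19, adjusted p = 0.0256) was lost without overexpressor myoblast or myotube replicate A.

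Oasl2, a relative of the oligoadenylate synthetases, changed places between the lines. In myoblasts the control had 2.57, 3.15 and 2.63 CPM, the overexpressor 1.44, 0.949 and 1.36 and the knockout 0.387, 0.819 and 0.534. In myotubes the control had 0.0758, 0.298 and 0.108, the overexpressor 1.60, 1.35 and 1.35 and the knockout 1.98, 1.98 and 2.15. The control was the highest line in myoblasts and the lowest in myotubes, with no overlap between any pair of lines at either stage. Against the control the log2 fold change was -1.15 ± 0.25 (adjusted p = 0.00118) in overexpressor and -2.24 ± 0.27 (adjusted p = 1.38e-06) in knockout myoblasts, and 3.21 ± 0.34 (adjusted p = 2.32e-07) and 3.71 ± 0.34 (adjusted p = 2.38e-08) in myotubes. The myotube values rest on few control counts (4, 13 and 6), and without control replicate B they were 3.92 and 4.43. The fall in the control was -4.16 ± 0.33 (adjusted p = 3.68e-09), or -4.88 without that library.

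Ifit1, which binds viral RNA lacking the host cap, had 63, 55 and 39 counts in control myoblasts, 7, 0 and 3 in the overexpressor and 3, 0 and 5 in the knockout. The clones' libraries overlapped each other and lay below every control library (-3.82 ± 0.54, adjusted p = 1.29e-05 and -4.29 ± 0.55, adjusted p = 3.11e-06 on the log2 scale). Without overexpressor replicate A the first value was -4.86, and without knockout replicates B and C in turn the second was -3.70 and -5.01. Ifit1 had 7, 7 and 7 counts in control myotubes, 7, 5 and 7 in the overexpressor and 20, 17 and 12 in the knockout. The knockout rose with differentiation (2.48 ± 0.62, adjusted p = 0.00207), or by 1.89 and 3.20 without knockout myoblast replicates B and C in turn. The differences from the control did not pass at that stage (adjusted p = 0.37 and 0.0795). The neighbouring family members Ifit2 and Ifit3 did not pass in myoblasts in any pair of lines. Ifit3 had at most 41 counts in a library, and its lower level in overexpressor myotubes (-1.02 ± 0.42, adjusted p = 0.047) was lost in 11 of the 18 fits that each left out 1 library, with adjusted p up to 0.133. Ifit3 rose in the knockout with differentiation (2.13 ± 0.46, adjusted p = 6.38e-04). Ifit2 fell there (-0.88 ± 0.30, adjusted p = 0.0176), a call lost without knockout myotube replicate B or C. Members of the Ifit family lie side by side and resemble each other, so reads may be split between them.

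Bst2, the membrane protein tetherin that holds budding virus, had 8.33, 9.09 and 8.13 CPM in control myoblasts, 1.64, 2.42 and 2.03 in the overexpressor and 1.94, 2.44 and 2.21 in the knockout. In myotubes it had 5.87, 6.25 and 5.39, 3.50, 2.59 and 2.81 and 3.93, 4.47 and 4.37. The control was highest at both stages without overlap, and in myotubes the knockout lay between the other lines. The log2 fold changes in myoblasts were -2.07 ± 0.15 (adjusted p = 2.66e-09) and -1.95 ± 0.15 (adjusted p = 3.21e-09). In myotubes they were -0.98 ± 0.14 (adjusted p = 1.09e-05) and -0.46 ± 0.14 (adjusted p = 0.00867), of which the knockout value had an adjusted p of 0.0559 with the other size factors. Bst2 fell in the control (-0.55 ± 0.14, adjusted p = 0.00224) and rose in the overexpressor (0.55 ± 0.15, adjusted p = 0.00416) and the knockout (0.95 ± 0.15, adjusted p = 2.33e-05).

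Some effectors were higher in overexpressor cells. Samd9l, a restriction factor for poxviruses, had 6.91, 14.4 and 11.9 CPM in overexpressor myoblasts beside 5.90, 3.29 and 2.98 in the control and 1.61, 2.19 and 1.65 in the knockout. Its libraries scatter widely within groups. Against the control the difference was 1.44 ± 0.42 (adjusted p = 0.0126), lost without control replicate B or C or overexpressor replicate B. In myotubes the overexpressor had 3.94, 4.04 and 11.4 CPM, with replicate C far above the others, and the control had 2.58, 2.31 and 3.45. The log2 fold change of 1.21 ± 0.43 (adjusted p = 0.025) was 0.62 without that library, and its call was also lost without control replicate A or B. Against the knockout the overexpressor was higher in myoblasts (2.60 ± 0.45, adjusted p = 1.69e-04) and in myotubes (2.21 ± 0.45, adjusted p = 7.60e-04, or 1.54 without overexpressor replicate C). Xaf1, an antagonist of the apoptosis inhibitor XIAP, was 3.85 ± 0.405 CPM in overexpressor myoblasts beside 1.65 ± 0.501 in the control (1.22 ± 0.17, adjusted p = 1.25e-05). In the control it rose with differentiation (1.33 ± 0.17, adjusted p = 1.73e-06), and in myotubes neither clone passed against it, with 4.17 ± 0.203 in the control, 4.40 ± 0.408 in overexpressor cells and 4.53 ± 0.390 in the knockout.

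Lgals3bp, a secreted glycoprotein, was lower in the overexpressor than in the control at both stages (-0.77 ± 0.14, adjusted p = 1.88e-04 in myoblasts and -1.18 ± 0.14, adjusted p = 7.55e-07 in myotubes), and lower than in the knockout in myoblasts (-0.49 ± 0.14, adjusted p = 0.00662). Rtp4, an interferon-induced chaperone, rose in the control (0.78 ± 0.22, adjusted p = 0.00492) and was lower in the myotubes of the overexpressor (-0.73 ± 0.21, adjusted p = 0.00711) and the knockout (-1.33 ± 0.23, adjusted p = 5.16e-05). For the untested effectors, Usp18, which removes ISG15 from proteins, had 1, 8 and 2 counts in control myoblasts, 3, 5 and 2 in the overexpressor and 0, 1 and 0 in the knockout. Rsad2, which encodes viperin, had 2, 5 and 7 counts in control myoblasts, and its total over 3 libraries was at most 5 in each other group. Control replicate B held 8 of the 11 Usp18 counts of its group, and such totals are too small for a fold.

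Parp9, Parp14 and Dtx3l encode an ADP-ribosyltransferase-like protein, a mono-ADP-ribosyltransferase and the E3 ligase that partners PARP9. All 3 were lower in knockout than in control myoblasts, with log2 fold changes of -0.90 for Parp9, -2.56 for Parp14 and -1.15 for Dtx3l, and all 3 rose with differentiation in the knockout. In overexpressor myoblasts Parp14 alone passed (-2.07 ± 0.24, adjusted p = 1.34e-06), with 0.579, 0.884 and 0.462 CPM against 2.04, 2.75 and 3.34 in the control and 0.452, 0.419 and 0.498 in the knockout. In knockout myotubes Parp14 was 2.77, 2.23 and 2.20 CPM, above each of the control's 1.29, 1.10 and 1.19 (1.00 ± 0.22, adjusted p = 6.49e-04). Parp9 and Dtx3l overlap on opposite strands over 458 exonic bases, and the use of strand in counting is not given in the sources used here, so these neighbours are partly uncertain.

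The GTPases gave some of the largest differences in myotubes. Gbp2, a guanylate-binding protein that coats intracellular pathogens, had 1.12, 1.25 and 0.691 CPM in control myoblasts, 1.68, 1.40 and 1.39 in the overexpressor and 0.559, 0.601 and 0.445 in the knockout. In myotubes it had 0.227, 0.343 and 0.307, 2.03, 1.74 and 1.69 and 4.08, 4.10 and 3.51. The 3 lines were fully apart in myotubes, in the order knockout, overexpressor, control. The log2 fold change there was 2.64 ± 0.23 (adjusted p = 1.79e-08) in the overexpressor and 3.74 ± 0.23 (adjusted p = 1.05e-10) in the knockout. In myoblasts the knockout was lower (-0.94 ± 0.22, adjusted p = 0.00167), and the overexpressor's difference (0.54 ± 0.20, adjusted p = 0.0439) was lost in 11 of the 18 fits that each left out 1 library, with adjusted p up to 0.217. Gbp2 fell in the control (-1.82 ± 0.25, adjusted p = 3.95e-06) and rose in the knockout (2.86 ± 0.21, adjusted p = 1.76e-09).

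Igtp, an immunity-related GTPase of the Irgm group, had 1.01, 1.19 and 0.601 CPM in control myoblasts, 2.00, 1.57 and 2.08 in the overexpressor and 2.00, 2.35 and 2.12 in the knockout. In myotubes it had 1.82, 1.92 and 1.79, 7.45, 8.29 and 8.10 and 10.1, 9.98 and 8.84. No clone library overlapped the control of its stage. The log2 fold changes in the overexpressor and the knockout were 1.00 ± 0.18 (adjusted p = 2.47e-04) and 1.19 ± 0.18 (adjusted p = 2.03e-05) in myoblasts and 2.11 ± 0.16 (adjusted p = 2.60e-09) and 2.39 ± 0.16 (adjusted p = 4.45e-10) in myotubes. It shares 162 exonic bases on the same strand with Irgm2, so part of its counts may belong to that gene. Irgm1, a regulator of the same family, turned around like Irf1: in myoblasts it was 39.3 ± 0.710 CPM in the control and lower in the overexpressor (-0.45 ± 0.09, adjusted p = 8.01e-04) and the knockout (-0.31 ± 0.09, adjusted p = 0.00915). In myotubes it was 20.9 ± 1.68 in the control and higher in the overexpressor (0.74 ± 0.09, adjusted p = 2.18e-06) and the knockout (0.55 ± 0.09, adjusted p = 5.24e-05).

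Gbp3 fell in the control (-2.74 ± 0.42, adjusted p = 1.67e-05) and was lower in the myoblasts of the overexpressor (-1.45 ± 0.37, adjusted p = 0.00397) and the knockout (-2.42 ± 0.40, adjusted p = 5.61e-05), and had at most 9 counts in any control or overexpressor myotube library. Gbp7 had at most 13 counts in a library. Its 1 difference from the control, in knockout myoblasts, was -1.86 ± 0.76 (adjusted p = 0.047) and lost its call in 12 of the 18 fits that each left out 1 library, with adjusted p up to 0.174. Without knockout replicate B that value was -2.76 and without replicate C it was -1.25. Iigp1 had 6, 4 and 2 counts in control myoblasts, 0 in every overexpressor myoblast library and at most 2 elsewhere, too few for a fold. The guanylate-binding proteins are near copies of each other, so counts of single family members are uncertain.

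**Figure D3:**
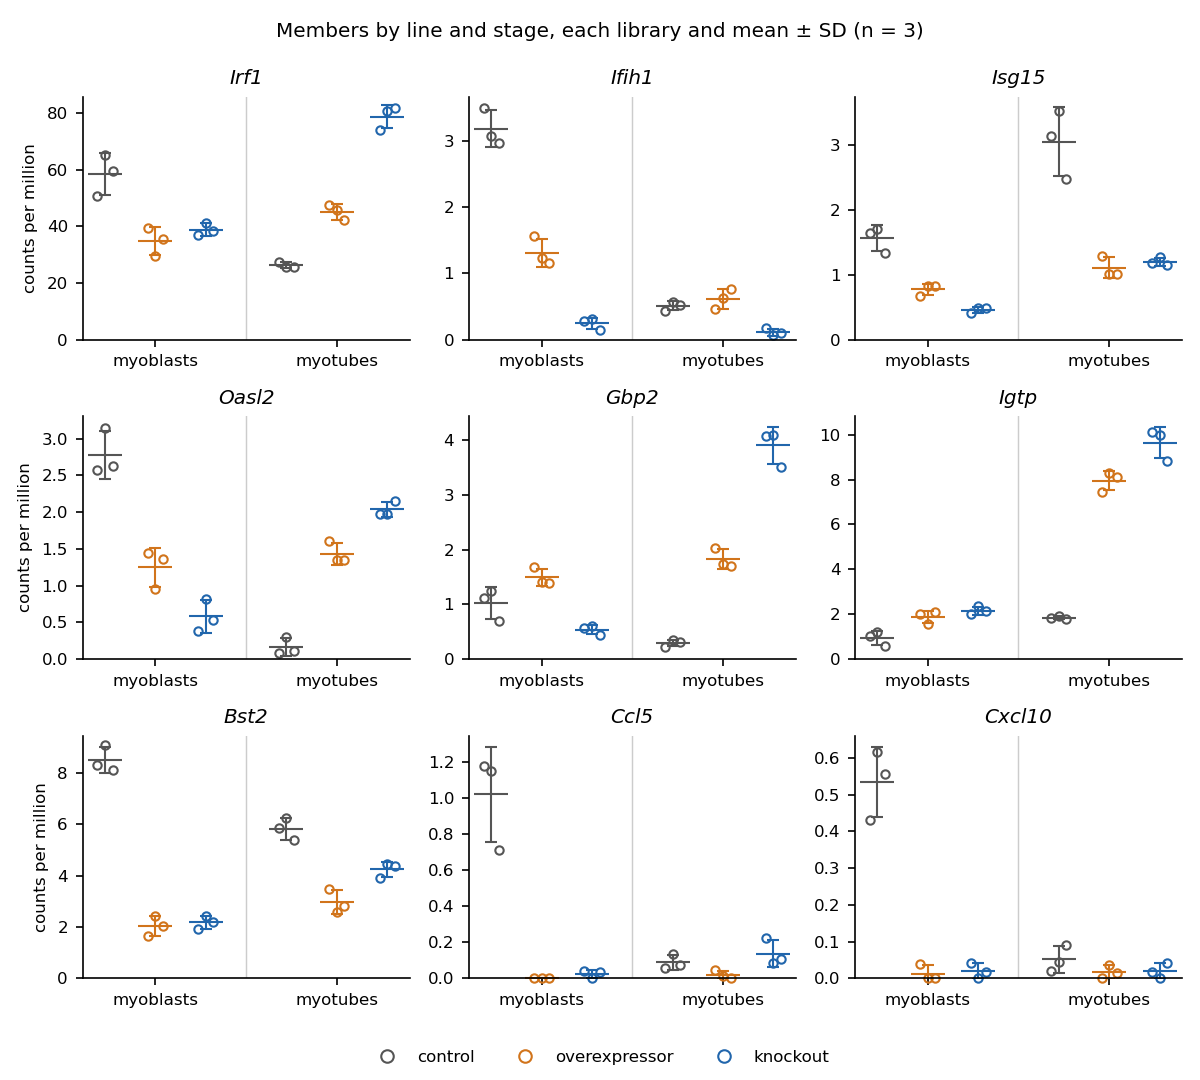
CPM (vertical axes, from 0) of 9 members in every library, with the mean and SD of 3 replicates, for control, overexpressor and knockout cells as myoblasts and as myotubes. Irf1 and Gbp2 are highest in knockout myotubes, Oasl2 in control myoblasts; Ccl5 and Cxcl10 have their highest libraries in control myoblasts.

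Within class I presentation the immunoproteasome and the heavy chains moved apart in myotubes. In overexpressor myoblasts 6 of the 7 genes were lower than in the control and 1, B2m, was higher (all genes, 19.7% and 20.7%). In knockout myoblasts 6 were lower (26.6%). In myotubes 5 were lower and 1 higher in the overexpressor (30.9% and 26.2%), and 4 lower and 2 higher in the knockout (37.0% and 31.0%).

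Psmb8, the immunoproteasome subunit LMP7, had 15, 13 and 9 counts in control myoblasts, 2, 0 and 0 in the overexpressor and 0, 1 and 7 in the knockout. In myotubes it had 3, 2 and 3 counts in the control, 31, 60 and 20 in overexpressor cells and 160, 192 and 152 in the knockout. Knockout myotubes stood above every other library, and overexpressor myotubes above control myotubes. The log2 fold change in myotubes was 3.19 ± 0.58 (adjusted p = 1.28e-04) in the overexpressor and 5.79 ± 0.51 (adjusted p = 1.59e-08) in the knockout. In myoblasts the pooled counts of the overexpressor were 17.2-fold below the control (95% counting interval 4.44 to 147, adjusted p = 0.00153), its counts all coming from replicate A. Such counting intervals, here and below, use counts summed over the libraries of a group and leave out the spread between libraries. The knockout differed by -2.23 ± 0.67 (adjusted p = 0.00893) on the log2 scale. Without knockout myoblast replicate C the latter was -4.35. The rise with differentiation was 5.85 ± 0.51 (adjusted p = 1.92e-08) in the knockout, or 7.97 without knockout myoblast replicate C, and 35.4-fold in the pooled counts of the overexpressor (95% counting interval 9.56 to 296). Psmb8 shares 498 exonic bases with an antisense transcript, Gm20496, and reads of the pair cannot be separated where strand was not used.

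Psmb9, the subunit LMP2, rose in the knockout, with 6, 4 and 7 counts in myoblasts and 29, 26 and 26 in myotubes (2.16 ± 0.61, adjusted p = 0.00476). Control myotubes had 0, 0 and 5 counts and overexpressor myotubes 0, 10 and 2, so the groups did not overlap with the knockout. The knockout difference from the control in myotubes was 3.82 ± 0.75 (adjusted p = 2.15e-04), and 7.75 without control myotube replicate C, which held all the counts of its group. In the control Psmb9 fell from 14, 12 and 10 counts (-2.79 ± 0.83, adjusted p = 0.00673, or -6.72 without that library), and the overexpressor did not pass between the stages. In overexpressor myoblasts (1, 3 and 1 counts) the difference from the control was -2.66 ± 0.83 (adjusted p = 0.0154), lost without overexpressor replicate A or C and -3.35 without replicate B. The overexpressor lay below the knockout in myotubes (-3.13 ± 0.63, adjusted p = 4.16e-04, or -4.88 without overexpressor replicate B). The third catalytic subunit of the immunoproteasome, Psmb10, is not in the panel; it had 8.18, 9.57 and 8.77 CPM in control, 36.7, 35.4 and 30.6 in overexpressor and 43.0, 47.3 and 52.8 in knockout myotubes (1.95 ± 0.11, adjusted p = 5.54e-11 and 2.43 ± 0.11, adjusted p = 2.76e-12). The constitutive subunits that these replace, Psmb5, Psmb6 and Psmb7, rose with differentiation in every line, and were higher in the knockout than in the control at both stages, by 0.41 to 0.57 in myoblasts and by 0.34 to 0.53 in myotubes on the log2 scale.

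Tap1 and Tap2 encode the subunits of the peptide transporter. Tap1 had 2.72, 3.60 and 3.43 CPM in control myoblasts, 0.120, 0.259 and 0.601 in the overexpressor and 0.753, 0.929 and 0.587 in the knockout, and 2.75, 1.99 and 2.04, 0.579, 0.688 and 0.431 and 1.42, 1.94 and 1.92 in myotubes. The control was above both clones at each stage without overlap, though in myotubes the highest knockout library came close to the lowest control library. The log2 fold changes in myoblasts were -3.34 ± 0.34 (adjusted p = 2.89e-07) and -2.10 ± 0.30 (adjusted p = 1.07e-05), the first being -4.10 without overexpressor replicate C. In myotubes the overexpressor was lower (-1.99 ± 0.30, adjusted p = 1.80e-05) and the knockout did not pass (-0.36 ± 0.28, adjusted p = 0.26). Tap1 and Psmb9 lie head to head and overlap over 212 exonic bases. Tap2 shares 533 exonic bases with Gm15821 and 165 with Gm20496, both on the opposite strand, so its counts are uncertain where strand was not used. Tap2 rose in all 3 lines and stayed lowest in the overexpressor: its myotube libraries had 39.2, 33.0 and 30.8 CPM in the control, 8.26, 9.16 and 6.71 in overexpressor cells and 13.7, 14.4 and 14.2 in the knockout. Against the control that was -2.09 ± 0.14 (adjusted p = 3.45e-10) and -1.28 ± 0.13 (adjusted p = 1.52e-07), and in myoblasts -2.21 ± 0.15 (adjusted p = 8.01e-10) and -1.11 ± 0.14 (adjusted p = 1.98e-06).

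The heavy chains H2-K1 and H2-D1 present peptides on the cell surface. H2-K1 had 80.2, 85.5 and 84.1 CPM in control myoblasts, 52.1, 40.5 and 49.0 in the overexpressor and 42.2, 48.5 and 46.0 in the knockout, and 85.6, 87.0 and 81.7, 42.5, 43.1 and 37.1 and 45.2, 50.4 and 54.9 in myotubes. The control was highest at both stages without overlap, and no line changed past the threshold with differentiation. The log2 fold changes were -0.82 ± 0.09 (adjusted p = 9.37e-07) in overexpressor and -0.87 ± 0.09 (adjusted p = 2.72e-07) in knockout myoblasts, and -1.05 ± 0.09 (adjusted p = 1.75e-08) and -0.76 ± 0.09 (adjusted p = 9.80e-07) in myotubes. H2-D1 had 103 ± 10.9 CPM in control myotubes, 37.3 ± 3.61 in the overexpressor (-1.47 ± 0.09, adjusted p = 1.22e-10) and 33.2 ± 2.29 in the knockout (-1.63 ± 0.09, adjusted p = 2.63e-11). In myoblasts the log2 fold change was -1.15 ± 0.09 (adjusted p = 4.39e-09) in the knockout and -0.28 ± 0.09 (adjusted p = 0.0161) in the overexpressor, the latter lost without control or overexpressor replicate B. The class I heavy chains are near copies, so reads may be shared between these genes and others of the locus.

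B2m had 226, 220 and 225 CPM in control myoblasts, 305, 277 and 262 in the overexpressor and 186, 184 and 191 in the knockout. In myotubes it had 258, 251 and 247, 184, 202 and 204 and 183, 175 and 182. These are small changes on a high level: 0.33 ± 0.06 (adjusted p = 1.67e-04) and -0.26 ± 0.06 (adjusted p = 0.00102) in myoblasts, and -0.36 ± 0.06 (adjusted p = 4.06e-05) and -0.48 ± 0.06 (adjusted p = 9.47e-07) in myotubes. The rise of 0.17 in the control with differentiation was -0.07 when scaled to library totals (adjusted p = 0.286), and the call was also lost without control myoblast replicate B, control myotube replicate A or overexpressor myotube replicate C.

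**Figure D4:**
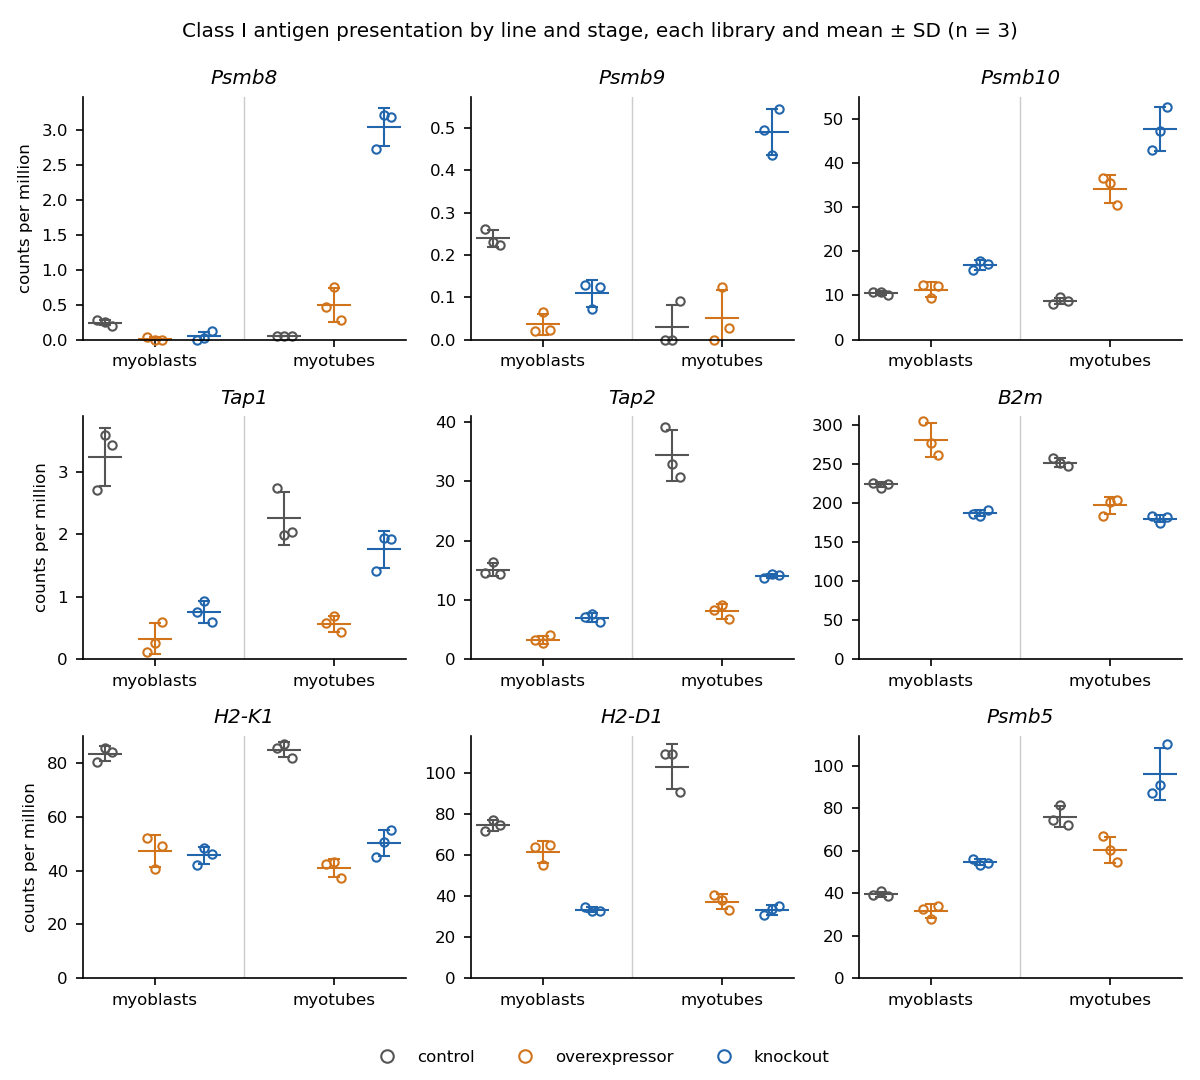
CPM (vertical axes, from 0) of class I presentation genes in every library, with the mean and SD of 3 replicates, by line and stage; Psmb10 and the constitutive subunit Psmb5 are shown beside the 7 members. Psmb8, Psmb9 and Psmb10 are highest in knockout myotubes, while Tap2, H2-K1 and H2-D1 are highest in control myotubes or myoblasts.

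Both chemokines had their highest counts in control myoblasts. Ccl5, which draws T cells and monocytes, had 63, 60 and 32 counts there, 0 in every overexpressor myoblast library and 2, 0 and 2 in the knockout. Control myotubes had 3, 6 and 4 counts, overexpressor myotubes 3, 1 and 0 and knockout myotubes 13, 5 and 5. Control myoblasts lay above every other library. Ccl5 was at least 48-fold lower in overexpressor myoblasts, with the group's 0 taken as 3 counts over its libraries, and -5.20 ± 0.63 (adjusted p = 3.20e-06) on the log2 scale in the knockout. It fell in the control (-3.53 ± 0.52, adjusted p = 1.97e-05) and rose in the knockout (2.34 ± 0.81, adjusted p = 0.0184), a rise lost without knockout myoblast replicate B or knockout myotube replicate A. The overexpressor's difference from the control in myotubes (-2.10 ± 0.87, adjusted p = 0.0489) was lost in 12 of the 18 fits that each left out 1 library, with adjusted p up to 0.17. Without overexpressor replicates A and C in turn it was -3.32 and -1.48. The overexpressor also lay below the knockout in myotubes (-2.77 ± 0.78, adjusted p = 0.00663, or -3.98 without overexpressor replicate A).

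Cxcl10, a ligand of CXCR3, had 23, 32 and 25 counts in control myoblasts, 2, 0 and 0 in the overexpressor and 2, 0 and 1 in the knockout. No library outside control myoblasts had more than 5. The pooled counts were 37.2-fold lower in overexpressor myoblasts (95% counting interval 9.96 to 312, adjusted p = 4.74e-05) and 28-fold lower in knockout myoblasts (9.23 to 138, adjusted p = 3.16e-05). All counts of the overexpressor were in replicate A, and the fitted knockout value of -4.65 on the log2 scale was -5.57 without knockout replicate A. Cxcl10 fell in the control with differentiation (-3.29 ± 0.62, adjusted p = 1.54e-04, or -4.0 without control myotube replicate C).

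The summed leukocyte markers were 12.3 to 13.4 CPM in control myoblasts, 12.3 to 13.9 in overexpressor and 6.14 to 6.82 in knockout myoblasts, and 8.75 to 9.96, 3.29 to 4.34 and 4.29 to 4.89 in the myotubes. Of the 6 markers tested, 2 were lower in overexpressor than in control myoblasts (all genes, 19.7%), with a median log2 fold change of -1.65. Csf1r had 14, 4 and 2 counts against 21, 22 and 25 (-1.67 ± 0.44, adjusted p = 0.00484), and Lyz2 6, 1 and 2 against 24, 28 and 21 (-2.88 ± 0.54, adjusted p = 2.67e-04). In knockout myoblasts Cd14 was lower and Itgam higher (all genes, 26.6% and 26.4%), with a median of -0.25. In myotubes 4 markers were lower and 1 higher in the overexpressor (30.9% and 26.2%), and 3 lower and 3 higher in the knockout (37.0% and 31.0%). Ptprc had no count in control myoblasts, and Adgre1 none in control or overexpressor myoblasts. The part of such cells in the chemokine values was not tested.

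Upstream of the panel, 16 of 18 genes of the receptors and JAK-STAT signalling were tested. In myoblasts 4 were higher and 6 lower in the overexpressor (all genes, 20.7% and 19.7%), and 2 higher and 11 lower in the knockout (26.4% and 26.6%), with median log2 fold changes of -0.17 and -0.42. In myotubes 3 were higher and 10 lower in the overexpressor (all genes, 26.2% and 30.9%), and 6 higher and 9 lower in the knockout (31.0% and 37.0%), with medians of -0.33 and -0.53. Ifnar1, a chain of the type I receptor, had 89.7, 89.4 and 88.2 CPM in control myoblasts, 110, 106 and 107 in the overexpressor and 53.5, 55.6 and 55.2 in the knockout. The 3 lines did not overlap: the overexpressor was above the control (0.28 ± 0.06, adjusted p = 6.70e-04) and the knockout below it (-0.70 ± 0.06, adjusted p = 8.37e-09). In myotubes it was lower in both clones (-0.37 ± 0.06, adjusted p = 2.00e-05 and -0.68 ± 0.06, adjusted p = 8.99e-09).

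Of 21 further genes of nucleic acid sensing and signalling, 19 were tested. In myoblasts 7 were higher and 3 lower in the overexpressor (all genes, 20.7% and 19.7%), and 3 higher and 12 lower in the knockout (26.4% and 26.6%). In myotubes 8 were higher and 5 lower in the overexpressor (26.2% and 30.9%), and 5 higher and 10 lower in the knockout (31.0% and 37.0%). Tmem173, which encodes STING, was 25.7, 26.5 and 26.0 CPM in control myoblasts, 7.65, 6.62 and 7.72 in those of the overexpressor and 1.70, 1.89 and 2.22 in knockout myoblasts. The knockout's log2 fold change was -3.74 ± 0.13 (adjusted p = 6.36e-14), and Tmem173 rose with differentiation in the knockout (1.77 ± 0.12, adjusted p = 1.09e-09).

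Of 50 other interferon-stimulated genes 33 were tested. In myoblasts 8 were higher and 11 lower in the overexpressor (all genes, 20.7% and 19.7%), and 5 higher and 20 lower in the knockout (26.4% and 26.6%), with median log2 fold changes of -0.12 and -0.65. In myotubes the counts lay near the background, with 11 higher and 13 lower in the overexpressor (26.2% and 30.9%) and 10 higher and 10 lower in the knockout (31.0% and 37.0%). Parp11, a mono-ADP-ribosyltransferase, had 0 counts in every knockout library, beside 640, 699 and 572 counts in control and 325, 322 and 301 in overexpressor myoblasts. Gbp4 and Gbp9, guanylate-binding proteins like Gbp2, were lower than the control in the myotubes of both clones, where Gbp2 was higher. Gbp9 had 263, 166 and 181 counts in the control, 3, 0 and 6 in overexpressor cells and 2, 0 and 2 in the knockout. Gbp4 had 179, 95 and 176 counts in the control against 1, 0 and 1 and 1, 3 and 1. Members of the guanylate-binding family therefore differed in direction in the clones' myotubes.

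The 19 other genes of antigen presentation were all tested. With differentiation 13 rose and 5 fell in the knockout (all genes, 29.8% and 35.6%), 3 rose and 8 fell in the control (33.9% and 28.8%), and 3 rose and 9 fell in the overexpressor (29.8% and 33.0%). The knockout's response was higher than the control's for 13 and lower for 2 (all genes, 20.2% and 29.9%), with a median difference of 0.54. Tapbp, the tapasin that bridges class I molecules to TAP, was 198, 201 and 210 CPM in control myoblasts, 134, 114 and 133 in those of the overexpressor and 79.4, 87.3 and 76.6 in knockout myoblasts, and 56.6, 66.4 and 52.9, 108, 108 and 85.2 and 147, 159 and 166 in the myotubes. Its order of lines was reversed between the stages without overlap at either, and its difference in response was 1.46 ± 0.14 (adjusted p = 1.59e-07) in the overexpressor and 2.74 ± 0.14 (adjusted p = 5.10e-11) in the knockout. In the class II pathway 2 of 7 genes were tested, and Cd74, the invariant chain, had 452, 295 and 350 counts in control myotubes, 5, 8 and 2 in the overexpressor and 9, 3 and 0 in the knockout (-6.68 ± 0.43, adjusted p = 2.63e-10 and -6.60 ± 0.45, adjusted p = 4.30e-10).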

How the data were processed

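Polyadenylated RNA of 18 C2C12 libraries was sequenced, 3 for each of 3 lines at 2 stages. The authors deposited raw read counts per gene. STAR 2.7.9a, featureCounts (Subread 2.0.3), FastQC 0.11.7, DESeq2 1.32.0 and the build mm10 are named in the submitters' processing notes; neither the release of the annotation nor whether strand was used is given in the sources used here. Symbols were matched by Ensembl ID to a GENCODE annotation of GRCm38, in which 260 of the 55450 IDs had no entry.

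Counts were scaled by TMM, filtered by group with filterByExpr and fitted once over all libraries with edgeR 4.0.16 (quasi-likelihood, robust, 6 group means, 12 residual degrees of freedom, R 4.3.3), with Benjamini-Hochberg adjustment over 17912 genes and a threshold of 0.05. The fit was also run on simulated counts in which a small part of the genes changed in a single comparison. That setting differs from the widespread changes of these data, so it does not check the fit under them. Alternatives to this scaling were library totals and DESeq2 size factors, which here are relative log expression factors computed in edgeR. The test was also replaced by the Wald test of DESeq2 1.42.0 or by a test against a 2-fold change. Further fits used no filter or a mean of at least 1 CPM, took the replicate letter as a term, or left out each library. The members and gene lists were chosen with earlier results of these data known. Named genes were a set of 21 members plus, in each comparison, the 3 highest and 3 lowest members past the threshold without overlap between groups, and at most 2 genes per further list. Total counts of 41544358 to 79140702 per library give few counts for the rarest members, so their values are printed as counts. A gene of the signalling list is not reported here by name.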

Additional observations from a re-analysis of the deposited data

Results flagged for a closer look

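The change from myoblasts to myotubes differed between lines for 59 combinations of a member and a pair of lines, by the test of the difference itself in edgeR's quasi-likelihood fit (adjusted p under 0.05 over all genes). Values are differences of log2 fold changes. Pairs that include the control share its libraries.

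In the overexpressor minus the control, the regulators differed by 1.53 for Irf1 and -0.65 for Irf9, and the sensors by 1.56 for Ifih1 and 0.65 for Ddx58. The effectors differed by 3.16 for Ifit1, 4.36 for Oasl2, 1.09 for Bst2, -1.14 for Xaf1 and -1.22 for Rtp4, and Parp14 by 1.87. The GTPases differed by 2.10 for Gbp2, 1.11 for Igtp and 1.19 for Irgm1. In class I presentation the values were 7.10 for Psmb8, 1.35 for Tap1, -0.69 for B2m and -1.18 for H2-D1. Ccl5 had 6.70, a fitted value that rests on 0 counts in overexpressor myoblasts and is no bound, and Psmb8 rests on 2 counts there.

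In the knockout minus the control, the regulators differed by 2.17 for Irf1, 1.84 for Irf7 and 0.90 for Stat2. The sensors differed by 1.58 for Ifih1, 0.97 for Ddx58 and 1.99 for Zbp1, and the ligase gene Trim25 by 0.40. The effectors differed by 5.36 for Ifit1, 5.96 for Oasl2, 1.5 for Bst2 and -1.41 for Rtp4. Parp9, Parp14 and Dtx3l had 0.73, 3.56 and 1.12. The GTPases differed by 4.68 for Gbp2, 3.42 for Gbp3, 1.20 for Igtp and 0.87 for Irgm1. In class I presentation the values were 8.02 for Psmb8, 4.95 for Psmb9, 1.74 for Tap1, -0.22 for B2m and -0.48 for H2-D1, and Ccl5 had 5.87.

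In the overexpressor minus the knockout every difference past the threshold was negative. The regulators had -0.65 for Irf1, -1.15 for Irf7, -0.87 for Irf9 and -0.83 for Stat2, and Trim25 had -0.51. The effectors had -0.86 for Isg15, -2.47 for Ifit3, -1.60 for Oasl2 and -1.49 for Xaf1. Parp9, Parp14 and Dtx3l had -0.83, -1.69 and -0.92, and Gbp2 and Gbp3 had -2.58 and -1.96. In class I presentation B2m had -0.46, H2-K1 -0.34 and H2-D1 -0.70.

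Leaving out 1 library ended some of these calls. Against the control, Tap1 and Ccl5 in the overexpressor reached adjusted p of 0.0984 and 0.129, and Ifih1 and B2m in the knockout 0.12 and 0.199. Between the clones, Gbp3 reached 0.0838 and H2-K1 0.14. Without overexpressor myoblast replicate A the difference between overexpressor and control was 4.20 for Ifit1 and 9.96 for Psmb8, and without replicate C it was 2.11 for Tap1. Without overexpressor myotube replicates A and C in turn Ccl5 had 5.47 and 7.31. Without control myotube replicate B Oasl2 had 5.08 in the overexpressor and 6.67 in the knockout, and without control myotube replicate C Psmb9 had 8.88 in the knockout. Without knockout myoblast replicates B and C in turn Ifit1 had 4.77 and 6.08 in the knockout, and Psmb8 had 10.14 without replicate C. With DESeq2 size factors the knockout's differences for B2m and H2-D1 had adjusted p of 0.551 and 0.0623.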

How the results depend on the processing

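Of 266 member calls, 254 were kept with DESeq2 size factors, 255 with library totals, 246 with no filter, 207 with a mean of at least 1 CPM (59 had no value), 250 with DESeq2's Wald test and 84 when tested against a 2-fold change. Leaving out each library in turn kept 220 and ended 46 at least once. Of 300 recomputed counts of members called in either direction, 288 stayed within 1.5 times the reported one, and the other 12 were those of the 2-fold test. Counts in 1 direction moved further where they were small: in knockout myoblasts 1 in place of 2 was higher with DESeq2, with no filter, or without control replicate A or C or knockout replicate B or C. The overexpressor's response was higher than the knockout's for 1 in place of 0 with library totals or without 1 of 6 single libraries, and its myotubes had 5 in place of 3 members above the knockout's without its replicate A. With a mean of at least 1 CPM 11 in place of 17 fell in the control. The 2-fold test left 8 members for the overexpressor and 10 for the knockout against the control and 5 between the clones in myoblasts, and 8, 10 and 4 in myotubes. For the responses it left 9 in the control, 3 in overexpressor cells and 10 in the knockout, and for their differences 5 (overexpressor minus control), 11 (knockout minus control) and 1 (between the clones).

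Without 1 library the counts ranged from 24 to 28, 22 to 29 and 14 to 17 for the 3 myoblast comparisons in that order, 20 to 25, 20 to 22 and 20 to 23 for myotubes, 23 to 28, 15 to 20 and 21 to 24 for the responses of the control, overexpressor and knockout, and 17 to 21, 23 to 24 and 16 to 20 for their differences. B2m in the control response turned to -0.07 with library totals. That scaling moved the median of all genes from 0.07 to -0.17 in the control response and from -0.08 to -0.24 in the knockout response. In overexpressor against control myotubes it moved from -0.04 to 0.11.

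Replicate letters did not pair the libraries: same-letter deviations correlated at -0.892 to 0.759 (median -0.117), and 2 of 18 libraries correlated best with their own letter. With a replicate block, 258 of 266 calls were kept. The block gave 26, 25 and 17 members in myoblasts, 23, 20 and 21 in myotubes, 26, 19 and 24 for the responses and 18, 23 and 16 for their differences. Depth limits the members with few counts: Usp18, Rsad2 and Iigp1 could not be tested, and folds of Psmb8, Psmb9, Nlrc5, Gbp7, Ifit1, Ccl5 and Cxcl10 rest on few counts.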
